A study of Mus musculus with 19 samples.

Results

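The 10 genes described here encode apolipoproteins and the proteins that build and edit lipoprotein particles. They are Apob, Mttp, Apobec1, Apoa1, Apoa2, Apoa4, Apoc3, Apoe, Apom and Apoh. They were chosen by gene symbol, and all 10 were found, as 12 RefSeq transcripts among 30455 transcripts of 23337 gene symbols. For a gene with several transcripts, values are those of the transcript with most counts on average.

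RNA was measured in 11 libraries. Yolk sac endoderm (ysE) came from FVB mouse embryos, with 2 libraries at E9.25 (A and B, dUTP stranded protocol) and 1 library at E12.5 (a protocol without strand). Visceral yolk sac (VYS) mesoderm came from FVB embryos of the same stage, E9.25 (libraries A and B, dUTP). It was parted from the endoderm with Dispase and still held the blood vessels and basement membrane. Fetal liver was from FVB embryos at E12.5 (libraries A and B, ScriptSeq protocol), and a whole litter was pooled for each tissue sample. Cystic embryoid bodies (EBs) were grown from ES cells of a C57Bl/6x129 background and differentiated for 10 or 15 days. The male clone A9 gave the A library of each day (d10-A and d15-A, ScriptSeq), and the female clone JN gave the B library (named d10-B and d15-B, dUTP). Protocol was the same for ysE E9.25 and mesoderm; elsewhere it goes with tissue, clone or, within ysE, stage, and cannot be told apart from it, except where EBs of the matching protocol are compared. The p-values measure the spread between these few libraries. Tests against tissues take the EB libraries as separate replicates, although each clone gave a library on both days. The study asked how far cystic EBs resemble yolk sac endoderm and fetal liver.

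Lipoproteins carry lipid through the blood in particles wrapped by apolipoproteins. In the hepatocyte and enterocyte, and in the visceral endoderm of the rodent embryo, the protein of Apob is loaded with lipid by the microsomal transfer protein that Mttp encodes, and without either gene the yolk sac cannot export lipid to the embryo. APOBEC1, with a cofactor, edits a cytidine of the Apob mRNA into a stop codon, which yields the short form of apoB. Smaller apolipoproteins are exchanged between particles: Apoa1 and Apoa2 make up most protein of high-density lipoprotein, Apoa4 and Apoc3 travel on triglyceride-rich particles, Apoe is the ligand for uptake by LDL receptor family members, Apom carries sphingosine-1-phosphate, and Apoh (beta-2-glycoprotein I) binds phospholipid.

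Apoa1, Apoc3 and Apoa4 lie in one cluster on chromosome 9, at chr9:46228630-46230469, chr9:46233050-46235636 and chr9:46240844-46243458. The other genes lie apart: Apob at chr12:7977629-8016839, Mttp at chr3:138089855-138143418, Apobec1 at chr6:122577792-122603024, Apoa2 at chr1:171221564-171226379, Apoe at chr7:19696244-19701310, Apom at chr17:35128997-35131801 and Apoh at chr11:108395297-108414396 (RefSeq genes, GRCm38.p6). Upstream sequence is shown for 4 genes as examples, although other members, such as Apoa2, held motif matches too. All are the bases just before the start, read 5′ to 3′ on the gene's strand, from RefSeq on GRCm38.p6: Apob chr12:7977427-7977628 (plus), Mttp chr3:138143419-138143668 (minus), Apoa1 chr9:46228380-46228629 (plus) and Apoh chr11:108395047-108395296 (plus). The Apob sequence stops before the first base of the gene record. In Apob, Apoa1 and Apoh the capitals mark motif matches; in Mttp they mark CpG dinucleotides.
Apob: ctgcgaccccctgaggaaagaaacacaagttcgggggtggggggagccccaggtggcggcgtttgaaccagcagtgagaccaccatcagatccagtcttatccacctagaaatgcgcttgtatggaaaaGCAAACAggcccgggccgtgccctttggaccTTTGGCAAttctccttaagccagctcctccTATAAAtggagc
Mttp: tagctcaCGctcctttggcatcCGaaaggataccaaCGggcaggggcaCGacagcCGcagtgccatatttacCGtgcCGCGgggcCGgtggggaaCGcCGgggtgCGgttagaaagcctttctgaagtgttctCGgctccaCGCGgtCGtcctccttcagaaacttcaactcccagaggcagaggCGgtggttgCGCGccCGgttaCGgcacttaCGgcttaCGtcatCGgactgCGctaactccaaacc
Apoa1: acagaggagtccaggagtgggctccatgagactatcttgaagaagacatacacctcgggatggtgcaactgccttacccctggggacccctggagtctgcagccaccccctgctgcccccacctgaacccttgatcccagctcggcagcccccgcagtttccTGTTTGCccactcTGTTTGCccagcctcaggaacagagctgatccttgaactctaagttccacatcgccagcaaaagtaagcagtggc
Apoh: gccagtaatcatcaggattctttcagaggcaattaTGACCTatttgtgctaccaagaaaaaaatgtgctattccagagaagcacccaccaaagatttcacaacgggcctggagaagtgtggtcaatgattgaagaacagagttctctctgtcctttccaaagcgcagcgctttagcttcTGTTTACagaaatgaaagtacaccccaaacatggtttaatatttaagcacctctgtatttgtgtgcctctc
The motifs searched, on both strands of the 250 bases before the start, were TGTTTGC and TGTTTAC (forkhead factors, in alternative forms), TTGCNNAA (C/EBP), AGGTCA (nuclear receptors), GTTAAT (HNF1), CAAAGTC and the longer CAAAGTCCA that contains it (HNF4), and TATAAA (the core promoter box bound by TBP). Forkhead letters TGTTTGC stood in Apoa1, in 2 copies, and in Apob, and in 3.91% of 17491 promoters of protein-coding genes; TGTTTAC stood in Apoh and in 2.57%. TTGCNNAA was found in Apob and Apoa2 and in 9.14% of promoters, AGGTCA in Apoa2 and Apoh and in 2192 promoters, and TATAAA in Apob and Apobec1 and in 12.4%. GTTAAT (5.95% of promoters), CAAAGTC (3.66%) and CAAAGTCCA (0.366%) stood in 0 of the 9 windows matched, and the table has no window for Apoc3. A match describes letters only, not a bound site. The Mttp sequence holds 25 CpGs, that of Apoa1 holds 4 and that of Apoh 3, beside a median of 10 over all promoters.

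Library totals were 40453779 to 169981821 counts. Together the 10 genes took 1.69 to 2.79% of counts in the 3 ysE libraries, 0.114 to 0.486% in EBs, 0.169 and 0.281% in liver and 0.214 and 0.413% in mesoderm. Counts on the ribosomal RNA gene Rn45s ranged from 0.484 to 7.35% and were highest in d15-A. The ysE libraries held the 6 yolk sac endoderm markers at 8750 to 38480 summed RPKM, beside 115 to 1143 in EBs and 1631 and 2840 in liver. Afp had the largest part of these sums in ysE and liver. Its group means were 35560 RPKM in ysE E12.5, 6349 in ysE E9.25, 1933 in liver and 240 in EBs. EBs also held the pluripotency markers (64.3 to 137 RPKM), which were at 0.01 and 0.07 in liver.

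Apob, the scaffold of the particle, was high in ysE at both stages. Its level in RPKM, which scales reads to transcript length and library size, was 889 and 725 in ysE E9.25 (A and B) and 968 in ysE E12.5. It was 97.3 and 192 in mesoderm, 35.5 and 65.1 in liver, and 175, 33.5, 130 and 62.2 in EBs (here and below in the order day 10 A9, day 10 JN, day 15 A9, day 15 JN). The ysE libraries did not overlap with any other group, while EBs spanned the range of liver and reached into that of mesoderm. Mttp, which loads apoB with lipid, stood at 217 and 211 in ysE E9.25 and 127 in ysE E12.5. It was 16.4 and 29.7 in mesoderm, 14.6 and 25.5 in liver, and 42.9, 13.1, 33.7 and 30.3 in EBs. As for Apob, all 3 ysE libraries were above the other 8, but for Mttp the E9.25 libraries were above that of E12.5.

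Apobec1, which edits the Apob mRNA, ran the other way. Its level was 0.023 and 0.033 RPKM in ysE E9.25, from 6 and 13 counts, and it had 0 counts in ysE E12.5. It was 0.146 and 0.078 RPKM in mesoderm, 0.568 and 0.694 in liver and 0.651, 0.385, 0.965 and 0.81 in EBs. Every EB and liver library was above every yolk sac library, but the level stayed under 1 RPKM in all 11. The editing cofactors did not share this order: Rbm47 was at 22.2 ± 3 RPKM (SD, n = 2) in ysE E9.25 and 19.2 in ysE E12.5, against 5.3 ± 0.473 (n = 2) in liver. A1cf was at 3.1 ± 0.0396 (n = 2) in ysE E9.25, 5.23 in ysE E12.5, 8.6 ± 1.1 (n = 2) in liver and 0.105 ± 0.0806 (n = 4) in EBs. The tissue with the most Apob transcript therefore held both cofactors and close to no Apobec1 transcript.

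Of the 10 genes, Apoa1 of high-density lipoprotein had the highest RPKM in every ysE library. It reached 1435 and 1806 RPKM in ysE E9.25 and 4059 in ysE E12.5. It was 142 and 251 in mesoderm, 145 and 278 in liver, and 50.4, 28.2, 122 and 48.0 in EBs. Here EBs were the lowest group, each library below both liver libraries. Apoa2 was at 743 and 874 RPKM in ysE E9.25, 1412 in ysE E12.5, 84.4 and 134 in mesoderm, 64.9 and 181 in liver and 14.6, 6.95, 117 and 34.8 in EBs, so that d15-A fell between the liver libraries. Apom, the sphingosine-1-phosphate carrier, was at 607 and 723 RPKM in ysE E9.25, 856 in ysE E12.5, 55.5 and 104 in mesoderm, 24.9 and 50.8 in liver and 39.4, 10.996, 34.7 and 42.0 in EBs. Liver and EBs overlapped for Apom.

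Apoa4 and Apoc3 of triglyceride-rich particles were far higher in ysE than in liver. Apoa4 was at 710 and 745 RPKM in ysE E9.25 and 3298 in ysE E12.5, against 2.02 and 8.31 in liver. EBs had 20.1, 4.56, 40.9 and 7.86, and mesoderm 62.3 and 116. The ratio of Apoa4 to Apoa1, from the same cluster, was 0.495, 0.413 and 0.812 in the ysE libraries, 0.162 to 0.399 in EBs, 0.439 and 0.463 in mesoderm and 0.0139 and 0.0299 in liver. Liver thus held Apoa1 with little Apoa4, and its ratio overlapped with no other group. Apoc3 had the same order at lower levels: 8.41 and 10.1 RPKM in ysE E9.25, 14.5 in ysE E12.5, 0.848 and 2.29 in mesoderm, 0.116 to 0.767 in EBs and 0.105 and 0.225 in liver. The low Apoc3 values rest on few counts, 7 to 23 per EB library and 5 and 9 in liver.

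Apoe, the receptor ligand, varied least among the 10. It was at 696 and 885 RPKM in ysE E9.25, 1004 in ysE E12.5, 202 and 249 in mesoderm, 339 and 576 in liver and 1027, 315, 930 and 464 in EBs. EBs overlapped with both ysE and liver. Apoe made up 65.9 to 76.3% of the summed RPKM of the 10 genes in EBs and 53.3 and 47.4% in liver, but 8.5 to 14.8% in ysE, where Apoa1 was the largest share (27 to 34.4%). Apoe to Apob ratios were 5.89 to 9.42 in EBs, 9.55 and 8.85 in liver and 0.782 to 1.22 in ysE.

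Apoh, the phospholipid-binding glycoprotein, was high in both E12.5 tissues. It had 66.5 RPKM (3400 counts) in ysE E12.5, 9.59 and 29.4 RPKM in liver (1033 and 2658 counts), and 0.12 and 0.099 RPKM in ysE E9.25 (17 and 21 counts). Mesoderm had 0 and 4 counts, and the 4 EB libraries had 1 count together. Only the E12.5 tissues therefore held Apoh above 1 RPKM.

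**Figure D1:**
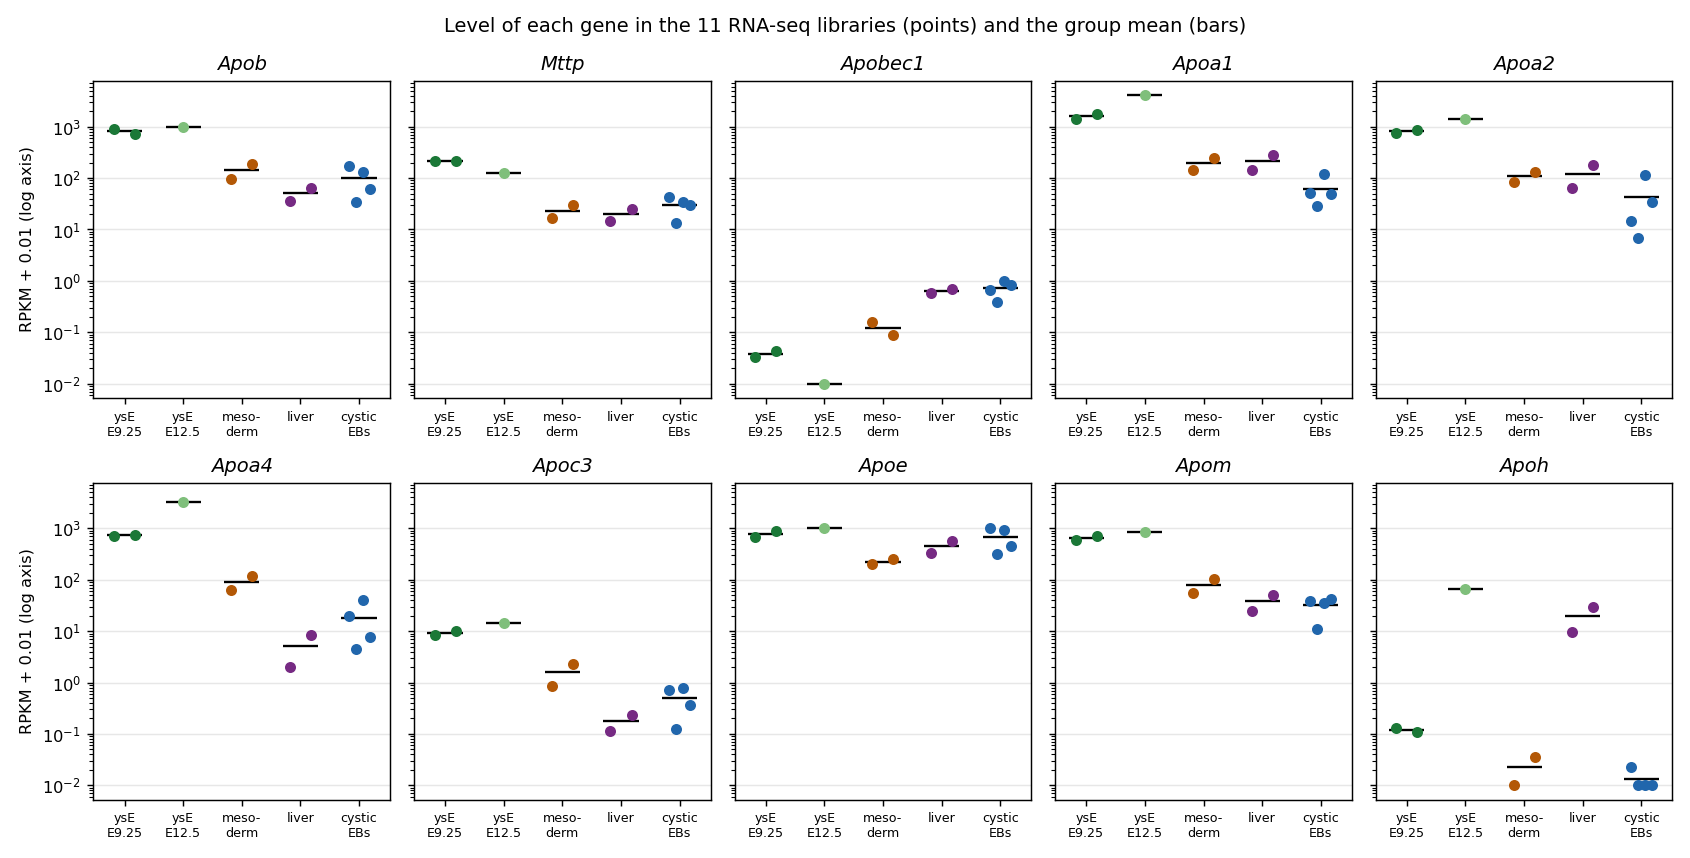
RPKM of each gene in every RNA-seq library, with 0.01 added, on a log axis; points are libraries and bars group means, and ysE E12.5 has 1 library. The 3 ysE libraries are at the top for 7 genes, all but Apoe, Apobec1 and Apoh, Apobec1 is lowest in ysE, and Apoh is high in ysE E12.5 (66.5 RPKM) and liver but near 0 in ysE E9.25 and EBs.

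**Figure D2:**
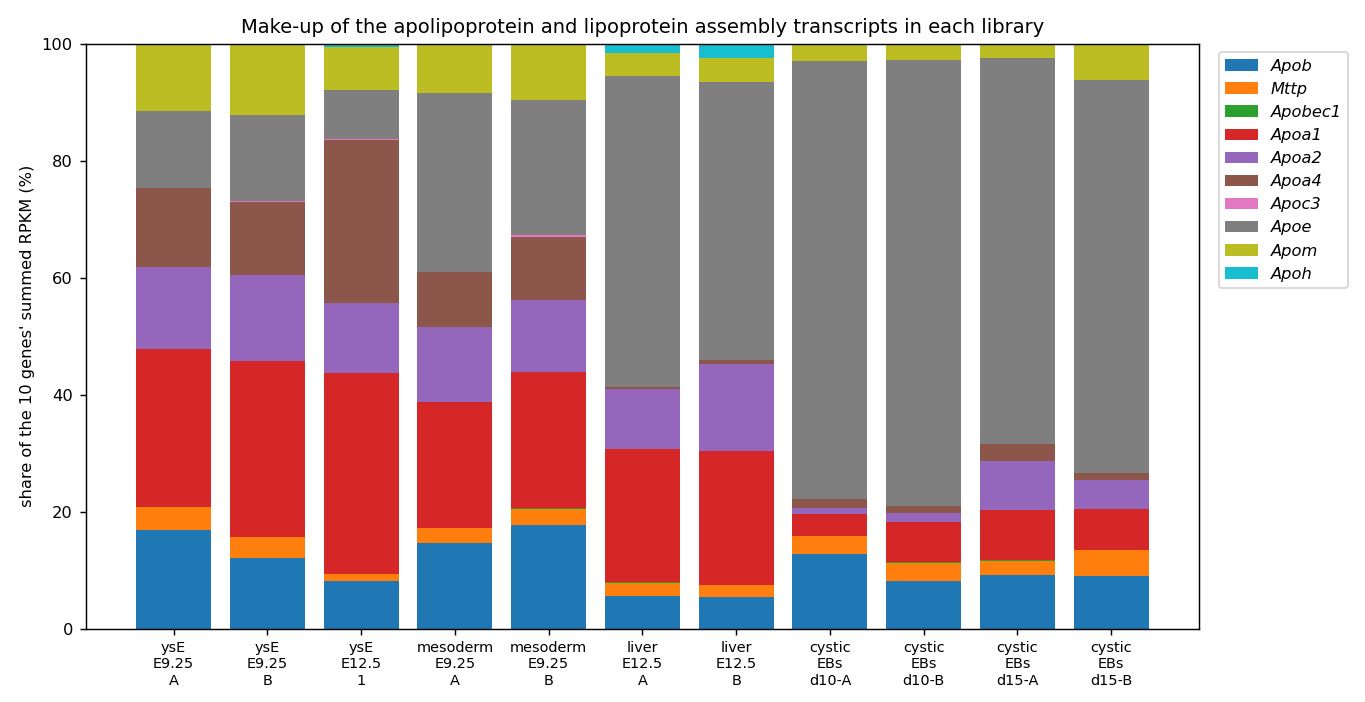
Stacked bars give the share of each gene in the summed RPKM of the 10 genes (percent), 1 bar per library. Apoe fills 65.9 to 76.3% of the EB bars and 8.5 to 14.8% of the ysE bars, in which Apoa1 is the largest part.

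In ysE E9.25 against VYS mesoderm E9.25, 8 of the 10 genes were higher and 0 lower, where 13.7% of all 24858 transcripts tested were called higher and 16.9% lower (edgeR quasi-likelihood test with Benjamini-Hochberg adjustment at 5%, which holds for every call below). The median log2 fold change of the 10 was 3.22, beside -0.05 over all transcripts. Mttp had the lowest adjusted p (log2 fold change 3.52 ± 0.56 SE, adjusted p = 0.00156), then Apom (3.37 ± 0.63, adjusted p = 0.00354) and Apoa1 (3.35 ± 0.70, adjusted p = 0.00607). Apoa4 (3.34), Apoh (3.23), Apoc3 (2.86), Apob (2.79) and Apoe (2.12) were also called, with adjusted p between 0.0179 and 0.0366. The Apoh call rests on 17 and 21 counts in ysE against 0 and 4 in mesoderm, at most 0.12 RPKM. Apoa2 had 3.20 ± 1.16 (adjusted p = 0.0636) and Apobec1 -1.65 ± 0.59 (adjusted p = 0.0623). At a 1% threshold 3 genes passed, and with 1 of the 4 libraries left out 2 (without mesoderm A), 3 (without ysE A or ysE B) or 5 did (without mesoderm B). Mttp and Apom passed in each of these.

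The mesoderm libraries held most members at a like fraction of ysE. On group means mesoderm was at 10.8% (Mttp) to 17.9% (Apob) of ysE for Apob, Mttp, Apoa1, Apoa2, Apoa4, Apoc3 and Apom. The libraries were also taken by letter, which the labels do not say marks a pair. Mesoderm A was at 7.58 to 11.3% of ysE A for these genes, and mesoderm B at 13.9 to 26.5% of ysE B. Apoe stood at 29.1 and 28.2%. The endodermal markers Afp (11.5 and 18.9%), Ttr (7.98 and 11.4%) and Amn (11.2 and 12.8%) were also found in mesoderm, and all 6 markers of that list were above 0 in mesoderm, at 984 and 1732 summed RPKM against 8750 and 9946 in ysE. All 6 erythroid markers (22880 and 17940 summed RPKM in mesoderm, 414 and 510 in ysE; median log2 fold change -4.72), all 4 endothelial (143 and 135 against 4.99 and 6.98) and all 4 mesenchyme markers (1088 and 958 against 26.8 and 43.5) were lower in ysE. The part of these markers' cells in the members' differences was not tested. In bulk RNA, fewer cells of a type and less RNA per cell cannot be told apart.

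In ysE E12.5 against liver E12.5, 7 genes were higher and 1 lower, where 22.6% of transcripts were called higher and 23.7% lower. The median of the 10 was 3.93, beside -0.26 over all transcripts. ysE E12.5 is 1 library, and the fit takes it to vary like the others. Among genes with counts in both tissues, Apoa4 differed most (9.37 ± 1.41, adjusted p = 0.000715), followed by Apoc3 (6.50 ± 1.04, adjusted p = 0.000977) and Apom (4.54 ± 0.71, adjusted p = 0.000901). Apob (4.31), Apoa1 (4.30), Apoa2 (3.57) and Mttp (2.70) rose as well, with adjusted p from 0.00196 to 0.0451; Apoa2 was not called once a liver library was left out (adjusted p = 0.187 without A and 0.0793 without B). Apobec1 was lower in ysE: liver was at least 19.4-fold higher, with ysE E12.5 set at 3 counts and totals scaled by TMM. Apoe had 1.17 ± 0.64 (adjusted p = 0.158) and Apoh 1.82 ± 0.71 (adjusted p = 0.06). The liver libraries also held erythroid markers (1294 and 1554 summed RPKM, against 214 in ysE E12.5). Of these, 4 of 6 were lower in ysE (median -7.26), as were all 4 endothelial (-7.55) and 4 of 6 macrophage markers (-5.43). Yolk sac endoderm markers were higher in ysE for 5 of 6 (4.45). Hepatocyte markers summed to 456 and 956 RPKM in liver and 490 in ysE E12.5, with 0 of 6 called. Among them Alb was at 562 RPKM in liver and 80.5 in ysE E12.5. F2 was at 51.4 and 238, and Ahsg at 81.1 and 152. The part of these markers in the members' difference was not tested.

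In ysE E9.25 against the same liver libraries, 6 genes were higher and 2 lower, where 26.7% of transcripts were called higher and 28.3% lower. The median was 3.30, beside -0.07 over all transcripts. Apoa4 (7.27 ± 1.25, adjusted p = 0.0011), Apoc3 (5.93), Apom (4.26), Apob (4.13), Mttp (3.54) and Apoa1 (3.06) were higher. Apobec1 (-4.35 ± 0.63, adjusted p = 0.000435) and Apoh (-7.35 ± 0.81, adjusted p = 0.000106) were lower. Apoa2 had 2.85 ± 1.15 (adjusted p = 0.0587) and Apoe 0.91 ± 0.54 (adjusted p = 0.179). Stage and protocol differ as well as tissue here. Of the markers, 5 of 6 of yolk sac endoderm were higher in ysE E9.25 (median 3.60), while 5 of 6 hepatocyte (median -7.29, with 26.1 and 28.8 summed RPKM against 456 and 956), 4 of 6 erythroid (-5.34), 4 of 6 macrophage (-3.48) and 3 of 4 endothelial markers (-2.35) were lower. Their part in the members' values was not tested.

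Between the stages of ysE, Apoh alone was called: it was higher at E12.5 by 9.16 ± 0.90 on the log2 scale (adjusted p = 0.00123), where 3.9% of transcripts were called higher and 4.57% lower. Apoa4 had 2.10 ± 1.12 (adjusted p = 0.278) and Apoa1 1.24 ± 0.76 (adjusted p = 0.344), and Apob had 0.18 ± 0.85. The ysE stages differ in protocol as well (without strand at E12.5, dUTP at E9.25), and stage and protocol cannot be told apart. The hepatocyte markers Alb, Ahsg and Cps1 were higher at E12.5 too (3 of 6; median of the list 6.47, with 490 summed RPKM against 26.1 and 28.8), and 3 of 4 endothelial (median -4.91) and 3 of 6 erythroid markers were lower (median -2.46); their part in the Apoh difference was not tested. A fit of these 3 libraries alone gave log2 fold changes of 2.23 for Apoa4, 1.38 for Apoa1 and -0.71 for Mttp. That fit takes its spread from ysE E9.25 A and B only. Under RLE scaling the share of higher calls over all transcripts went from 46 to 58.6%, and 1 member was still called.

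**Figure D3:**
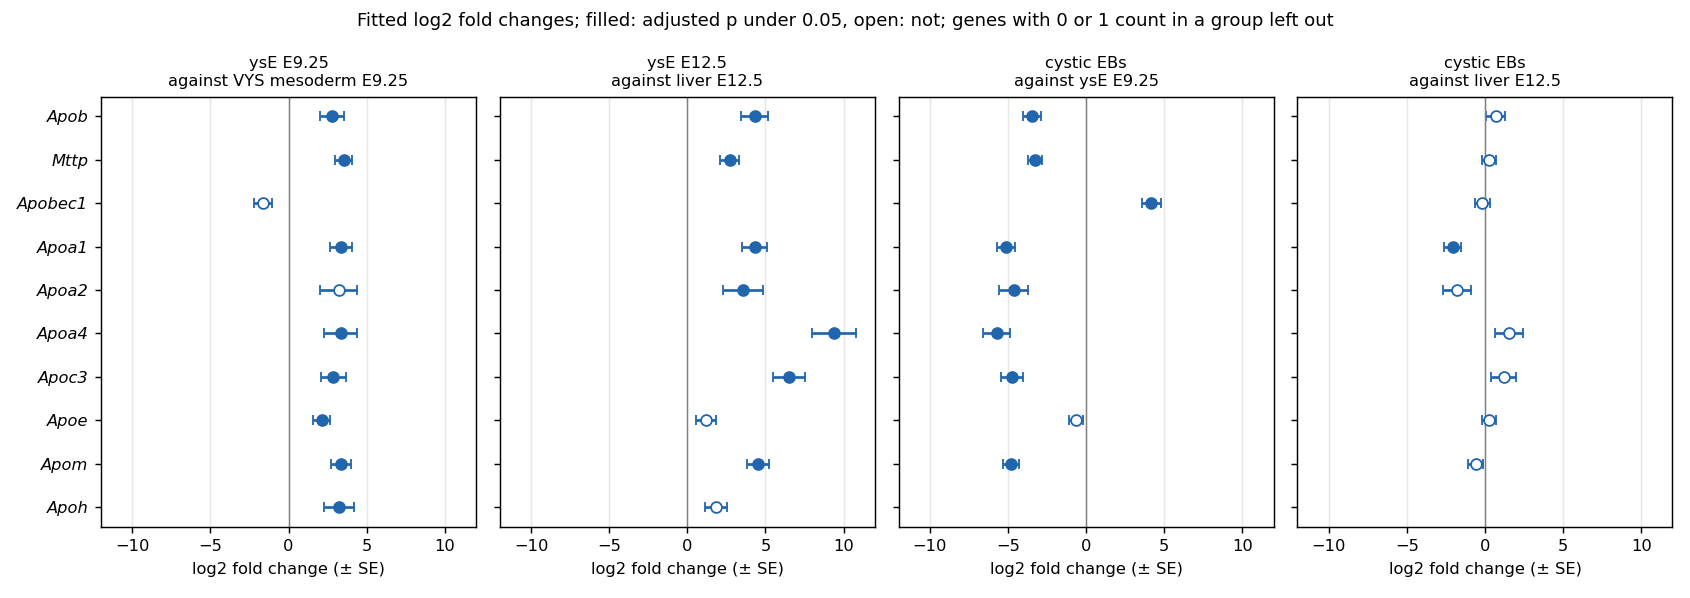
Log2 fold changes with standard errors for 4 of the comparisons; filled points have an adjusted p under 0.05, and genes with 0 or 1 count in a group are left out. ysE is above liver for each gene drawn in that panel, with Apoa4 at 9.37, and the genes of EBs against liver lie on both sides of 0, with Apoa1 at -2.07 the one filled point.

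Cystic EBs against ysE E9.25 gave 1 gene higher and 8 lower, where 27.1% of transcripts were called higher and 23.2% lower. The median over the 10 was -4.69, beside 0.17 over all transcripts. Apoa4 (-5.73 ± 0.87, adjusted p = 0.000661), Apoa1 (-5.13 ± 0.57, adjusted p = 0.000129), Apom (-4.84 ± 0.51, adjusted p = 0.000102), Apoc3 (-4.74) and Apoa2 (-4.64) fell. Apob (-3.45 ± 0.59) and Mttp (-3.28 ± 0.43) were lower too. Apoh was 62.9-fold higher in ysE E9.25 on TMM-scaled totals (95% counting interval 10.6 to 2550, from 38 against 1 count; adjusted p = 0.00241). Apobec1 was higher in EBs (4.18 ± 0.60, adjusted p = 0.000505), and Apoe had -0.65 ± 0.46 (adjusted p = 0.257). All 6 yolk sac endoderm markers were lower in EBs as well (median -4.52, with 115 to 1143 summed RPKM against 8750 and 9946), as were all 6 erythroid markers (-3.28), and the pluripotency markers Pou5f1 and Nanog were higher; the part of these in the members' values was not tested. Within the dUTP protocol, with the JN libraries alone, Apoe was called too (-1.51, adjusted p = 0.00156). In that fit 13646 of 24858 transcripts were called, and the JN libraries are 1 clone.

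Against ysE E12.5 the same split was found, 1 gene higher (Apobec1) and 8 lower, where 21.1% of transcripts were called higher and 18.8% lower. The median was -5.22, beside 0.42 over all transcripts. Both comparisons share the EB libraries. Apoa4 (-7.82 ± 0.99), Apoa1 (-6.37 ± 0.64) and Apoa2 (-5.36 ± 1.04) fell, as did Mttp (-2.44 ± 0.50). EBs were at least 16.4-fold higher in Apobec1 on the same terms, while Apoh was 36800-fold higher in ysE E12.5 (counting interval 6610 to 1460000, 3400 counts against 1). Apoe had -0.91 ± 0.57 (adjusted p = 0.225). All 6 yolk sac endoderm markers (median -4.21) and 5 of 6 hepatocyte markers were lower in EBs here (median -6.79), and all 4 endothelial (7.62 to 42 summed RPKM against 0.193) and all 3 pluripotency markers (64.3 to 137 against 2.51) were higher; their part was not tested either.

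Against liver, 0 members were higher in EBs and 2 lower, where 24.6% of transcripts were called higher and 20.9% lower. The median was 0.04, beside 0.20 over all transcripts. All 6 hepatocyte markers were lower in EBs (median -5.59, with 1.09 to 9.65 summed RPKM in EBs against 456 and 956 in liver). All 6 erythroid markers were lower too (median -7.71, with 7.1 to 57.2 against 1294 and 1554), as were 4 of 6 macrophage markers (-3.55). Of the 6 yolk sac endoderm markers, Amn and Cubn were higher in EBs and Afp, Rbp4 and Hnf4a lower (median -0.31). All 3 pluripotency markers were higher (11.01). The part of these markers in the members' values was not tested. Apoa1 fell (-2.07 ± 0.53, adjusted p = 0.0118), although not without liver B (-1.55, adjusted p = 0.115). Apoh was 10100-fold higher in liver (counting interval 1810 to 399000). The other 8 had log2 fold changes from -1.79 ± 0.89 (Apoa2, adjusted p = 0.127) to 1.54 ± 0.89 (Apoa4, adjusted p = 0.182), with Apobec1 at -0.17 ± 0.46 and Apoe at 0.26 ± 0.47; these errors leave room for differences of more than 1 log2 unit for several of them. Within ScriptSeq, with the A9 libraries alone, 6 genes were called, where 12278 of 24858 transcripts were. Apoa4 (2.29), Apoc3 (1.86), Apob (adjusted p = 0.0282) and Apoe (0.80) were higher in EBs, and Apoa1 and Apoh lower. The Apoc3 call rests on 23 counts in each A9 library against 5 and 9 in liver. The A9 libraries are 1 clone on 2 days. Without d15-A, Apoa2 was called lower too (-3.07, adjusted p = 0.00361).

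Between day 15 and day 10 EBs, 0 of the 9 members tested were called, and 0% of 22452 transcripts were, with 304 at an unadjusted p under 0.05. DESeq2 called 17 transcripts, none of them a member. Apoa2 had the largest difference (2.86 ± 0.80, unadjusted p = 0.0166, the only member under 0.05); it was at 14.6 RPKM on day 10 and 117 on day 15 in A9, and at 6.95 and 34.8 in JN. The clones were apart at day 10, when A9 held 5.21 times the Apob level of JN, 4.41 times its Apoa4 and 3.28 times its Mttp. At day 15 these ratios were 2.1, 5.21 and 1.11. Clone and protocol cannot be told apart here. Of Apob counts on exon parts of the Ensembl gene, the 18 parts nearest the 5′ end of 37 held 15.1 and 14.9% in the A9 libraries and 23.7 and 23.6% in JN, beside 24.6% in ysE E9.25 A.

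The exon-part counts, a comparison chosen after the data were seen, count the members anew in the 4 EB libraries and ysE E9.25 A. For 9 of the 10 genes the log2 ratio of mean EB to ysE CPM was within 0.2 of that from the transcript table, for example -3.06 against -3.03 for Apob and 0.18 against 0.09 for Apoe. The exception was Apobec1, with 1 exon-part count in ysE A against 6 in the transcript table, and 95 to 221 in EBs. All these ratios use raw library totals and ysE E9.25 A alone. The fit above used TMM scaling and both ysE E9.25 libraries, and its value for Apoe has the opposite sign.

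Over the 11 libraries the members moved with Apob to different degrees. Pearson's r of log2(RPKM + 1) with Apob was 0.963 for Apoa4 and for Apoc3, 0.95 for Apom, 0.943 for Mttp, 0.857 for Apoa1, 0.815 for Apoa2, 0.578 for Apoe, 0.0825 for Apoh and -0.692 for Apobec1. These are descriptions over libraries that fall into 5 tissues. Of 14102 genes, those most like Apob were Gjb2 (0.975), Sgsh (0.973), Snap29, Kdm1b and Ttr (0.968 each); those most like Apoe were Rnf103 (0.957), Sh3d19 (0.917), Plekha6 (0.911), Optn (0.908) and Stxbp2 (0.9).

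Other genes of the pathway were counted from lists chosen by function. Each was read against the shares of all transcripts given above for the same comparison. Of 7 further apolipoproteins, 4 were higher in ysE E9.25 than in mesoderm (median log2 fold change of the list 3.11), and in EBs against ysE E9.25 1 was higher and 4 lower (median -2.94). Both editing cofactors were higher in ysE E9.25 than in mesoderm and lower in EBs than in ysE E9.25 (medians 2.88 and -3.73). Apoc2, an activator of lipoprotein lipase, was at 743 ± 73.9 RPKM (n = 2) in ysE E9.25, 378 in ysE E12.5, 34.2 ± 13.4 (n = 2) in liver and 47.8 ± 39.2 (n = 4) in EBs. Apoc1 was at 375 RPKM in ysE E12.5 and 62.2 ± 1.25 (n = 2) in ysE E9.25, and Apoa5 peaked at 8.27 ± 0.438 (n = 2) in ysE E9.25.

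Of 12 genes that load lipid onto apoB particles or help them leave the cell, 7 were higher in ysE E9.25 than in mesoderm and 8 were lower in EBs than in ysE E9.25, with 0 in the opposite direction in each (medians 1.97 and -1.77). Dgat2, which makes triglyceride, was at 71.8 ± 6.7 RPKM (n = 2) in ysE E9.25, 102 in ysE E12.5, 5.95 ± 2.14 (n = 2) in liver and 6.25 ± 0.966 (n = 4) in EBs; EBs were lower than ysE E9.25 (-3.97 ± 0.27, adjusted p = 1.86e-05). P4hb, the partner of Mttp in the transfer protein, had -0.88 ± 0.43 in that comparison (adjusted p = 0.115). P4hb stood at 309 ± 170 RPKM (n = 4) in EBs and 423 ± 45 (n = 2) in ysE E9.25. In ysE E12.5, 1 library, P4hb was at 695 RPKM, and EBs were called lower than that stage. Surf4, a cargo receptor of the secretory pathway, fell from 113 ± 12.2 RPKM (n = 2) in ysE E9.25 to 42.2 ± 7.84 (n = 4) in EBs (-1.87 ± 0.19, adjusted p = 9.48e-05).

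Of 9 plasma enzymes and their regulators, 3 were lower and 2 higher in EBs than in ysE E9.25 (median -0.55). Against liver, 6 of these were lower and 1 higher in EBs (median -2.59). Lipc (hepatic lipase) was at 9.26 ± 0.0983 RPKM (n = 2) in ysE E9.25 and 20.1 in ysE E12.5. Liver held Lipc at 8.84 ± 3.04 (n = 2) and EBs at 0.253 ± 0.188 (n = 4). Lcat (which esterifies cholesterol) was at 4.98 ± 0.955 RPKM (n = 2) in ysE E9.25 and 18.1 in ysE E12.5. Liver held Lcat at 10.1 ± 4.21 (n = 2) and EBs at 0.421 ± 0.133 (n = 4). Of 13 receptors and exporters, 6 were lower and 4 higher in EBs than in ysE E9.25 (median -1.94). Against liver, 5 were lower and 4 higher in EBs (median -0.44). The endocytic receptors Cubn (382 ± 65.6 RPKM, n = 2), Amn (212 ± 52.8) and Lrp2 (91 ± 7.2) of ysE E9.25 were at 0.492 ± 0.0813, 0.074 ± 0.00566 and 0.989 ± 0.13 in liver (n = 2). In EBs they were at 19.4 ± 13.1, 5.67 ± 4.7 and 19.6 ± 7.58 (n = 4), and all 3 were higher in EBs than in liver (Cubn 4.98 ± 0.69, adjusted p = 0.000513; Amn 5.88 ± 0.87, adjusted p = 0.000693; Lrp2 3.98 ± 0.43, adjusted p = 0.000141).

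Of 14 regulators of apolipoprotein genes, 12 were higher in ysE E9.25 than in mesoderm and 11 were lower and 1 higher in EBs than in ysE E9.25 (medians 3.39 and -3.30); against liver EBs were lower in 11 and higher in 2 (-2.08). Hnf4a, which activates many apolipoprotein genes in hepatocytes, was at 92.8 ± 7.97 RPKM (n = 2) in ysE E9.25, 109 in ysE E12.5, 12.8 ± 1.7 (n = 2) in liver and 6.4 ± 2.71 (n = 4) in EBs. Creb3l3, a membrane-bound factor that acts on Apoa4 and Apoc2, was at 93.4 ± 4.39 (n = 2), 73.2, 10.8 ± 2.82 (n = 2) and 1.14 ± 0.704 (n = 4). Foxa3 was at 27.7 ± 4.54 (n = 2), 58, 7.12 ± 0.614 (n = 2) and 4.97 ± 0.817 (n = 4). EBs were lower than liver in all 3 (Hnf4a -1.32 ± 0.42, adjusted p = 0.0294; Creb3l3 -3.57 ± 0.55, adjusted p = 0.000876; Foxa3 -0.85 ± 0.30, adjusted p = 0.0423).

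Chromatin data bore on the start sites in other samples. H3K4me3, a mark of active promoters, was mapped in 1 library of whole E12.5 VYS from FVB embryos, endoderm and mesoderm together. A peak lay within 1 kb of the start site of all 9 members with a start site in the table, where 59.2% of 17491 protein-coding start sites had one. The peak at Apob ran over 5092 bases and those at Apoa1 and Apoa4 over 3346 and 3275, all with a score of 3100, a value that many peaks share. Apobec1, at 0 counts in ysE E12.5 RNA, had a peak of 1396 bases with a score of 2091, and Apoh one of 1090 bases (1294). The Apoa2 peak was the weakest (score 695) and began 273 bases from the start site. Which layer gave the Apobec1 peak was not tested.

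Methylation was read by whole-genome bisulfite sequencing in 2 libraries each of ysE E12.5, liver E12.5 and day 15 EBs, from reciprocal Cast by FVB crosses (CxF and FxC) and ES clones derived from them (CF-C2 and FC-A2). Values are given in CpG reads, the read counts summed over the CpG positions of a region, so that a fragment over several CpGs counts at each of them. Coverage was thin: 1 to 43 CpG reads fell within 1 kb of a start site in the libraries that had any. Mttp had 0 methylated of 14 and 0 of 33 CpG reads in ysE (CxF and FxC), which over 47 allows up to 7.55% (exact 95% upper limit), and 4 of 9 and 2 of 11 in liver. Apob had 5 of 17 and 3 of 9 in ysE and 16 of 20 and 13 of 21 in liver. Apoh had 2 of 9 and 0 of 5 in ysE, 12 of 20 and 16 of 26 in liver, and 9 of 9 and 1 of 1 in EBs.

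For these 3 genes, the 3 with at least 5 CpG reads in all 4 libraries, both ysE libraries were below both liver libraries, where this held for 29.7% of 4603 promoters. Within 500 bases Apoh had too few reads to compare, and Apob no longer met this, with 1 of 13 and 0 of 5 CpG reads methylated in ysE and 8 of 11 and 0 of 7 in liver. Against EBs only Mttp had enough reads: EBs had 1 of 25 and 1 of 5 methylated, above the 0 of ysE in both libraries (36.8% of promoters had both ysE libraries below both EB libraries). That rests on 1 methylated CpG read per EB library, the pooled EB interval (6.67%, 0.818 to 22.1) overlaps that of ysE, and within 500 bases EBs had 0 of 18 and 0 of 4. Pooled over both libraries, Apobec1 was at 2 of 27 CpG reads in ysE (7.41%, exact 95% interval 0.91 to 24.3), Apoe at 0 of 20 in ysE and 0 of 9 in EBs, and Apom at 49 of 57 in liver (86%, 74.2 to 93.7) and 43 of 46 in EBs (93.5%, 82.1 to 98.6). The 0 of Apoe allows up to 16.8% in ysE and 33.6% in EBs. Apom was thus highly methylated in liver and EBs, and had 0 of 3 CpG reads in ysE, too few to compare. These intervals and limits cover counting error only and take CpG reads as independent, so they are too narrow where 1 fragment spans several CpGs.

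Over whole genes, ysE was below liver in both libraries for 4 of the 6 members with at least 5 CpG reads in every library (Apoa2, Apobec1, Apoh and Apom), where this held for 56.1% of 15263 genes. It was below EBs for 3 of 7 (Apob, Apobec1 and Apoh), where it held for 61.5%. Apob went the opposite way against liver: 80.4 and 77.1% methylated in ysE and 71.5 and 73.9% in liver, beside 93.2 and 83.1% in EBs.

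**Figure D4:**
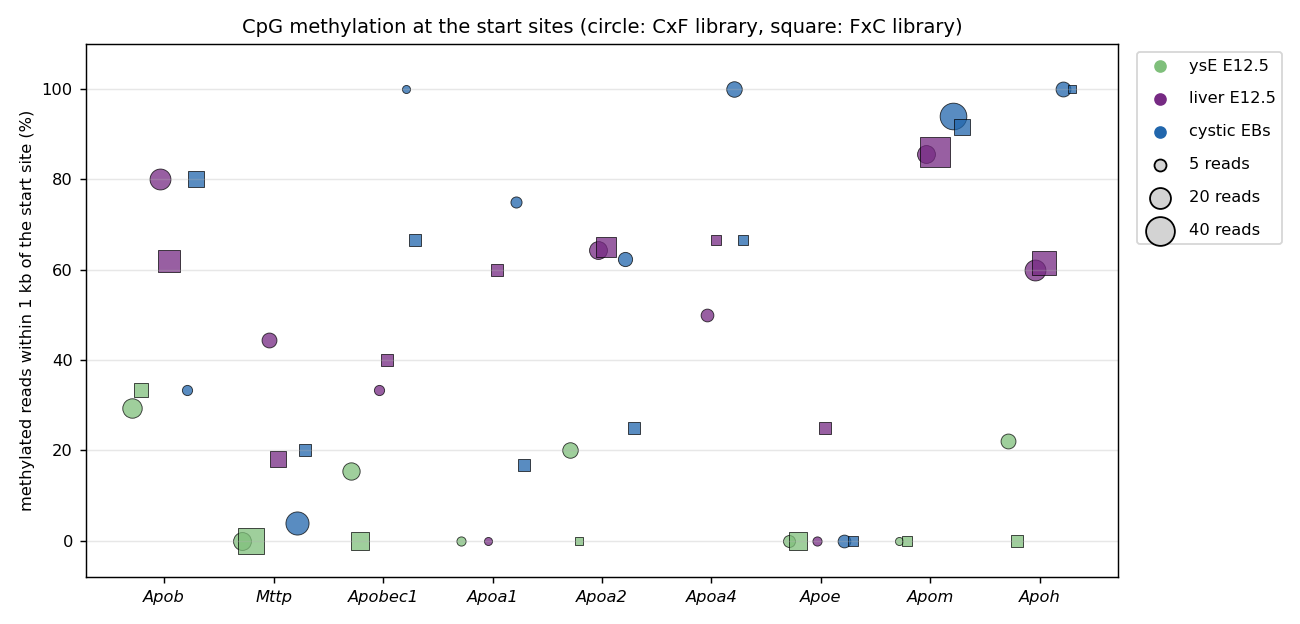
Percent of CpG reads methylated within 1 kb of each start site, per bisulfite library (circle CxF, square FxC; colour gives the tissue, size the number of CpG reads). Mttp and Apoe sit at 0 in ysE, and Apom at 85.7 to 94.1% in liver and EBs.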

How the data were processed

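Members, lists and tests were chosen with earlier results of these data known. The authors aligned RNA reads to mm10 with GSNAP after ribosomal depletion with RiboZero, and deposited raw counts per RefSeq transcript and RPKM values, which are scaled to transcript length and library size. They also deposited raw counts per exon part, with rows that name no gene left out here. BisSNP gave, per the deposited files, the percent of methylated reads and the read count at each CpG and strand. MACS (1.4.2) gave a peak score, per the deposited file, which rises with the significance over input DNA.

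Counts were tested with edgeR (4.0.16, R 4.3.3): TMM, filterByExpr, glmQLFit and glmQLFTest over 5 groups and 11 libraries, with Benjamini-Hochberg adjustment over 24858 transcripts at 5% and a common dispersion giving a coefficient of variation of 0.3995. Day 15 against day 10 was a fit of the 4 EB libraries alone. The scripts were tested on simulated data. The exact intervals and the bound of 3 counts, set over the group on TMM-scaled totals, cover counting error only. Motifs, peaks and promoter methylation used the most upstream start site listed for each gene. A promoter needed at least 5 CpG reads in each library compared. Of the CpG positions checked, 2130 of 2130 lay on a C or G of the called strand. The named genes were all members and the 3 genes of each list with the highest group mean RPKM. The 5 genes most like Apob and Apoe were named too, among those of at least 1 RPKM in some library. Marker lists are given by counts and summed levels, with some marker genes named singly outside this rule. 1 pathway gene that this rule names is not reported here. Alternatives were RLE scaling, DESeq2, no filter, 1 transcript per gene, fits of the compared groups only, a 1% threshold, leaving out each library, protocol-matched EBs and the replicate block. Day 10 and day 15 EBs of the same letter share the ES clone, and their deviations from the day means correlated at 0.638. The errors and calls of EBs against tissues do not account for this. The repeat-element table, and 1 exon-part file in which every count is 0, were not used here.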

Additional observations from a re-analysis of the deposited data

Results flagged for a closer look

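In the EB group of 4, 1 of 10 genes had a library far from the others by Dixon's test at 95%: for Apoh the gap of d10-A was 1.0 of the whole range, which comes from 1 count against 0 in the other 3. With all libraries but 1 at 0, this gap is always 1.0. Chance flags about 1 in 20 groups of normally distributed values, a rate that does not hold for such a group.

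From day 10 to day 15, 4 of 9 genes moved in opposite directions in the 2 ES clones. The log2 change in TMM-scaled CPM was -0.332 in A9 and 0.789 in JN for Apob, -0.258 and 1.11 for Mttp, -0.0559 and 0.452 for Apoe, and -0.0944 and 1.83 for Apom. With 1 library per clone and day, the difference was not tested. The A9 changes of Apoe and Apom were small. The share of all transcripts that moved in opposite directions was not counted, so this count is not a result about these genes.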

How the results depend on the processing

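Calls against mesoderm depended on the processing: 8 members became 3 at a 1% threshold and 2 to 5 with a library left out (3 without ysE A or B, 2 without mesoderm A, 5 without mesoderm B), with 10 under DESeq2. With only the groups compared in the fit, 10 members and 13160 transcripts were called. With the letter added to that fit as a replicate block, 9 members and 12279 transcripts were. Same-lettered ysE and mesoderm libraries correlated at -0.0859 in their deviations, and the labels do not say whether they share litters. EBs against liver went from 2 to 1 at 1%, to between 1 and 3 with a library left out (1 without liver B) and to 6 within ScriptSeq. The stages of ysE went from 1 to 8 with only the groups compared. EBs against ysE E9.25 (9 to 10), EBs against ysE E12.5 (9 throughout), and ysE E12.5 (7 to 10) or E9.25 (8 to 10) against liver stayed within 1.5 times. Day 15 against day 10 stayed at 0, also with the ES clone as a replicate block. RLE scaling moved the median log2 fold change of all transcripts from -0.07 to -0.23 in ysE E9.25 against liver and from -0.21 to -0.04 between the ysE stages. Over all transcripts, calls against mesoderm (7613) became 13160 with only the groups compared, 4315 at 1% and 4021 to 4869 with a library left out, of which 34.1% were higher without mesoderm A in place of 44.7%. Calls between the ysE stages (2106) became 10559 with only the groups compared, 4018 under DESeq2, 472 at 1% (58.7% higher), and 349 or 390 without ysE A or B. EBs against ysE E9.25 (12500) fell to 8097 at 1% and to 7793 and 7603 without ysE A or B, EBs against ysE E12.5 (9932) to 5794 at 1% and 6344 with only the groups compared, EBs against liver (11297) to 6793 at 1% and 6668 without liver B, and ysE E12.5 against liver (11521) to 7463 at 1%.

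Of 810 single-gene values under alternatives, 741 kept direction and call, 30 lost a call, 25 gained one and 14 turned sign, none of the latter called. In EBs against liver, leaving out a library gave -0.40 to 0.03 for Apobec1 (0.03 without d10-B; 0.06 within ScriptSeq), -0.08 to 0.69 for Mttp and -0.05 to 0.67 for Apoe (both lowest without liver A). Between days it gave -0.84 to 1.53 for Apob (0.23 with the replicate block), -0.41 to 1.27 for Mttp, -0.75 to 2.45 for Apoa4, -0.29 to 2.23 for Apoc3, -0.63 to 1.15 for Apoe and -0.04 to 1.77 for Apom. The cause was not tested. A pseudocount of 0.1 kept 2 of the 5 genes most like Apob and 4 of those most like Apoe. With CPM the group order held for 9 of 10 genes, all but Apobec1. With 500 bases, ysE was below liver in methylation for 1 of 2 members with enough reads (23.8% of 902 promoters). Within 1 kb this was 3 of 3 (29.7% of 4603). With a minimum of 10 CpG reads no member could be compared. H3K4me3 peaks were found at 8 of 9 members within 100 bases, where 56.8% of all start sites had one. Within 1 kb, 8 members had a peak with a score above the median, where 47.8% of start sites did. The thin methylation coverage and 1 or 2 libraries per tissue limit precision. On raw library totals, chosen after seeing the data, Apobec1 was at least 25.3-fold higher in liver and 23.4-fold in EBs than in ysE E12.5, and Apoh was 41.9-fold higher in ysE E9.25, 25800-fold in ysE E12.5 and 9220-fold in liver than in EBs.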
